A study of Mus musculus with 2 samples.

Results

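The 10 genes described here encode laminin chains (Lama2, Lama4, Lama5, Lamb1, Lamb2 and Lamc1), the nidogens (Nid1 and Nid2) and a pair of large heparan sulphate proteoglycans, perlecan (Hspg2) and agrin (Agrn). They were taken as a list of names, by a rule with no expression threshold, from 32285 genes in the single cell count matrices of sorted mouse plantaris cells, and each had at least 1 unique molecular identifier (UMI) in both libraries. The study asked how muscle stem cells (MuSCs) respond to a mechanical growth stimulus. One library came from sham-operated muscle and 1 from muscle after 5 days of mechanical overload (MOV), in which part of the gastrocnemius tendon and of the soleus was removed so that the plantaris carried more load. Both groups were Pax7rtTA; TRE-H2B-GFP mice 26 weeks old that drank 2.0 mg/mL doxycycline for 2 weeks; rtTA at the Pax7 locus drives nuclear GFP in Pax7-expressing cells when doxycycline is given, so both groups carried both transgenes and the drug. Cells were stained for VCAM, CD31, CD45 and Sca1 before sorting, whereas the deposited design text names GFP as the sorting signal, and the sources differ on whether 1 mouse or several gave each library. With 1 library per condition there was no replicate spread, so no difference below has a test between conditions, and every interval is an exact 95% interval that covers counting error only.

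A basement membrane is a thin matrix sheet that surrounds muscle fibres, vessels and nerves, and the MuSC lies between the fibre and this sheet. Laminins are trimers of an α, a β and a γ chain that assemble on the cell surface through dystroglycan and integrins; the α2 chain encoded by Lama2 is the main one around the adult fibre, and its loss causes a congenital muscular dystrophy. The α4 and α5 chains are known from vessels and nerve, and the β2 chain from the neuromuscular junction. Nidogens bridge the laminin and collagen IV networks. Perlecan binds growth factors through its heparan sulphate, and agrin from the motor nerve clusters acetylcholine receptors.

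The genes lie on 8 chromosomes, in the GRCm38 build used for the count matrices and GENCODE M21 gene spans. Lama2 (chr10:26980036-27619758, minus strand) and Lama4 (chr10:38965515-39110188, plus) share chromosome 10, and Hspg2 (chr4:137468769-137570630, plus) and Agrn (chr4:156165290-156197488, minus) share chromosome 4. Lama5 is at chr2:180176373-180225859 (minus), Lamb1 at chr12:31265234-31329644 (plus), Lamb2 at chr9:108479736-108490530 (plus), Lamc1 at chr1:153218922-153332786 (minus), Nid1 at chr13:13437551-13512269 (plus) and Nid2 at chr14:19751265-19811787 (plus). No other gene overlaps any of them on the same strand.

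Lama2 was the main α chain transcript of MuSC-like cells, Lama5 was near absent from Pdgfra cells and Agrn was highest in Schwann-like cells, and the 250 bases before their RefSeq start sites (GRCm38.p6, each on the minus strand, printed 5′ to 3′ in the sense of the gene) are shown for that reason. Capitals mark GGGCGG or its reverse complement CCGCCC, the letters of a GC box. The window of Lama2 lies inside the longer GENCODE span of the gene but over no exon.
Lama2, chr10:27616943-27617192: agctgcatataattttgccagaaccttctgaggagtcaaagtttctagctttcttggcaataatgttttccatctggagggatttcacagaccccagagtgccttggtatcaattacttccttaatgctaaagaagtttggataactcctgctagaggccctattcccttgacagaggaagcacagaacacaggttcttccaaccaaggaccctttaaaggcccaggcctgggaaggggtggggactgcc
Lama5, chr2:180225860-180226109: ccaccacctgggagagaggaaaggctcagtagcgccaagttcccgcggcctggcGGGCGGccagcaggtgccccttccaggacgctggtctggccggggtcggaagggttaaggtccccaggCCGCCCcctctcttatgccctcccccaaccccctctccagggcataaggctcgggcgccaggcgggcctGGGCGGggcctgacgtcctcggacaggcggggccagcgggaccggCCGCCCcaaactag
Agrn, chr4:156197489-156197738: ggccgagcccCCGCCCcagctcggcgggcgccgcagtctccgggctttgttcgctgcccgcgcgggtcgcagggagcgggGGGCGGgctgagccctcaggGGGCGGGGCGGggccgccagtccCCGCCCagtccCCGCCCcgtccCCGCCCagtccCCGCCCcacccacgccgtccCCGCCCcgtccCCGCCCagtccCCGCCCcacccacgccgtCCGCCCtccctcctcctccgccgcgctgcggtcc
The Lama2 window had 47.2% G and C, 0 CpG and 0 GC box matches. The Lama5 window had 72.4% G and C, 19 CpG and 4 matches, and the Agrn window 83.6%, 35 CpG and 12 matches. RefSeq gave another Agrn start, whose window (chr4:156186260-156186509, not printed) had 60.8% G and C, 8 CpG and 2 matches. Which start gave the counted transcripts was not tested. Across 32851 windows of the same length the medians were 52.4% and 6 CpG, and 32.7% of windows held the motif on either strand. The letters CAGCTG (in 13% of all windows) and TATAAA (in 12.4%) were absent from the 3 printed windows. A match or its absence describes the letters only.

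Cells were grouped by UMIs of marker genes that include no member of the list. The sham library held 1100 cells and 7302661 UMIs and the MOV library 3854 cells and 88498487 UMIs; 671 and 2785 cells remained after removal of cells with 10% or more mitochondrial UMIs, fewer than 1000 UMIs, high doublet scores or a barcode better filled in the other library. MuSC-like cells numbered 122 in sham and 1549 in MOV. They were divided by state markers into quiescence-marker (79 and 236), cycling (7 and 597), matrix-marker (0 and 185) and smaller groups, and 31 of the 122 sham and 360 of the 1549 MOV MuSC-like cells lay within 1.5-fold of the quiescence limit, so these states are ranges and not separate types. Myocyte-like cells numbered 1 and 149, Pdgfra cells (fibro-adipogenic-like) 20 and 429, tenocyte-like cells 22 and 166, Schwann-like cells 10 and 78, and vascular-like cells 10 and 48. Cells classed as other stromal numbered 2 and 124. Those of the MOV library carried the list at 1072 CPM, with 1022 UMIs of Nid1 and 487 of Lamb1, and are not placed in the orders of classes below. In the MOV library the defining genes were present: Pax7 at 74.0 CPM (UMIs of the gene per 1000000 UMIs of the class) in MuSC-like cells, Myog at 2531 CPM in myocyte-like cells, Pdgfra at 131 CPM in Pdgfra cells and Cdh5 at 724 CPM in vascular-like cells. In Schwann-like cells all 11 markers of their list had a UMI. The cells labelled as muscle stem cells thus held several other classes, after a sort that used antibodies against CD31, CD45 and Sca1. The 413 sham droplets with adult fibre markers carried few transcripts of the list, with Lamc1 highest at 3.42 CPM.

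Levels are CPM over the UMIs summed for a class. A UMI counts 1 transcript by its 3′ end whatever the transcript's length, so levels of different genes are compared as captured transcript ends. Free RNA in droplets gives low counts in cells that do not make a transcript, and the 63 myeloid-like cells of the MOV library served as a reference for it: their levels ran from 0 CPM for Lama5 and Lamb1 to 13.4 CPM (6.14 to 25.5) for Lamc1.

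**Figure D1:**
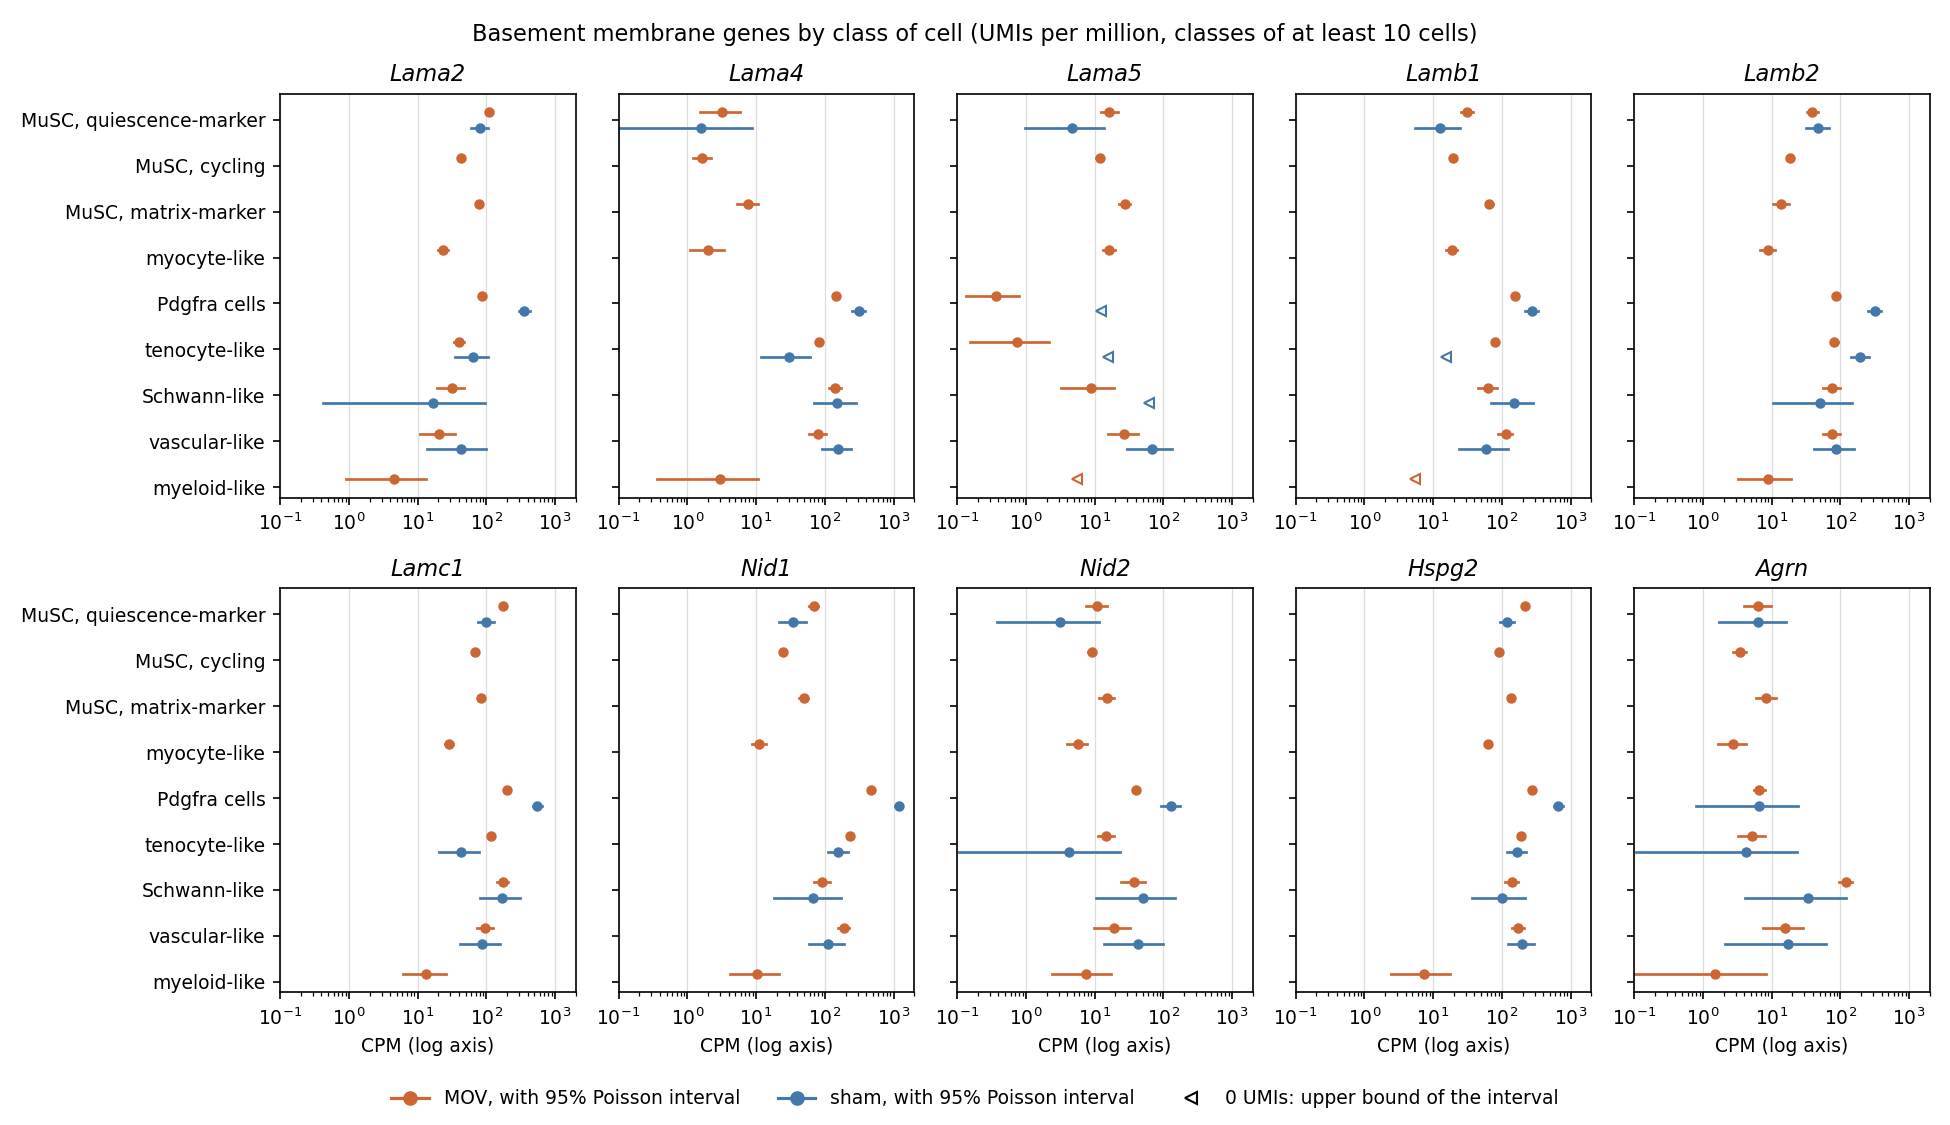
Level of each gene (CPM, log axis) in classes of at least 10 cells of the MOV (orange) and sham (blue) libraries, with lines for the 95% Poisson interval and open triangles for the upper bound where no UMI was counted. Lama4 sits near 100 CPM or above in Pdgfra cells and Schwann-like cells and under 10 CPM in the 3 MuSC-like states shown. In the MOV library Lama5 is higher in these states than in Pdgfra cells, and Agrn stands at 120 CPM in Schwann-like cells.

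Lama2, the α chain of the muscle fibre, was the main laminin α transcript of MuSC-like cells. In the MOV library it stood at 55.4 CPM (53.3 to 57.6) over all MuSC-like cells, at 109 CPM in the quiescence-marker state, 78.7 in the matrix-marker state, 42.6 in cycling cells and 23.6 in myocyte-like cells. The intervals of the 3 states and of the myocyte-like cells did not overlap, so their order held beyond counting error. Pdgfra cells had 87.0 CPM (82.6 to 91.7), within the interval of the matrix-marker state (70.6 to 87.4), followed by tenocyte-like cells at 40.2, Schwann-like cells at 31.2 and vascular-like cells at 20.4 CPM, and in these last 3 classes the intervals of neighbours overlapped. In sham, Lama2 stood at 80.5 CPM in quiescence-marker cells and at 358 CPM in the 20 Pdgfra cells.

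Lama4 was a transcript of the Pdgfra, Schwann-like, tenocyte-like and vascular-like cells. It measured 145 CPM (139 to 150) in Pdgfra cells, 141 CPM (114 to 172) in Schwann-like, 82.4 CPM in tenocyte-like and 78.6 CPM in vascular-like cells, and the members of the first pair and of the last pair did not differ beyond counting error. MuSC-like cells of the MOV library had 2.98 CPM (2.51 to 3.52), the same value as the myeloid-like cells (2.98 CPM, 0.361 to 10.8), and read as background. The share of cells with a Lama4 UMI was 94.9% of Pdgfra cells, 6.20% of MuSC-like cells and 3.17% of myeloid-like cells, or 27.2%, 0.649% and 3.45% after each cell was thinned to 2000 UMIs, so no order is read between the last pair. Pdgfra cells exceeded MuSC-like cells 48.5-fold, a log2 ratio of 5.60, and Schwann-like cells did so 47.3-fold, both against a level read as background.

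Lama5, the α chain known from vessel and epithelial basement membranes, was seen in myogenic cells and in other classes but hardly in Pdgfra cells. MuSC-like cells of the MOV library had 14.5 CPM (13.5 to 15.7) and myocyte-like cells 16.2 CPM (13.4 to 19.5), a difference within counting error. Pdgfra cells had 6 UMIs in 429 cells, or 0.367 CPM, which was 39.6-fold lower than MuSC-like cells (log2 ratio -5.31, -6.76 to -4.18). Tenocyte-like cells were as low, at 0.749 CPM from 3 UMIs. Vascular-like cells reached 26.7 CPM (15.6 to 42.8), from 17 UMIs in 48 cells. Schwann-like cells had 6 UMIs, or 8.90 CPM (3.27 to 19.4), which did not differ from MuSC-like cells beyond counting error. In the sham library the 122 MuSC-like cells had 13 Lama5 UMIs, or 8.47 CPM, and the 20 Pdgfra cells had 0, with an upper bound of 12.2 CPM.

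The composition of the α chains differed between classes. In quiescence-marker cells of the MOV library Lama2 made up 84.0% (80.01 to 87.4) of 405 α chain UMIs and Lama5 12.6%. In myocyte-like cells Lama2 made up 56.4% (50.5 to 62.2) of 289 UMIs and Lama5 38.8% (33.1 to 44.6). The share of Lama5 was larger in myocyte-like cells while its level was not, since the level of Lama2 was lower there. In Pdgfra cells Lama4 made up 61.9% and Lama2 37.3% of 3816 UMIs, and in Schwann-like cells Lama4 made up 77.9% of 122. In sham Pdgfra cells Lama2 stood at 53.5% (46.3 to 60.5) and Lama4 at 46.5% (39.5 to 53.7) of 202 UMIs, which did not differ beyond counting error. The share of Lama2 there was above that of the MOV Pdgfra cells beyond counting error.

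**Figure D2:**
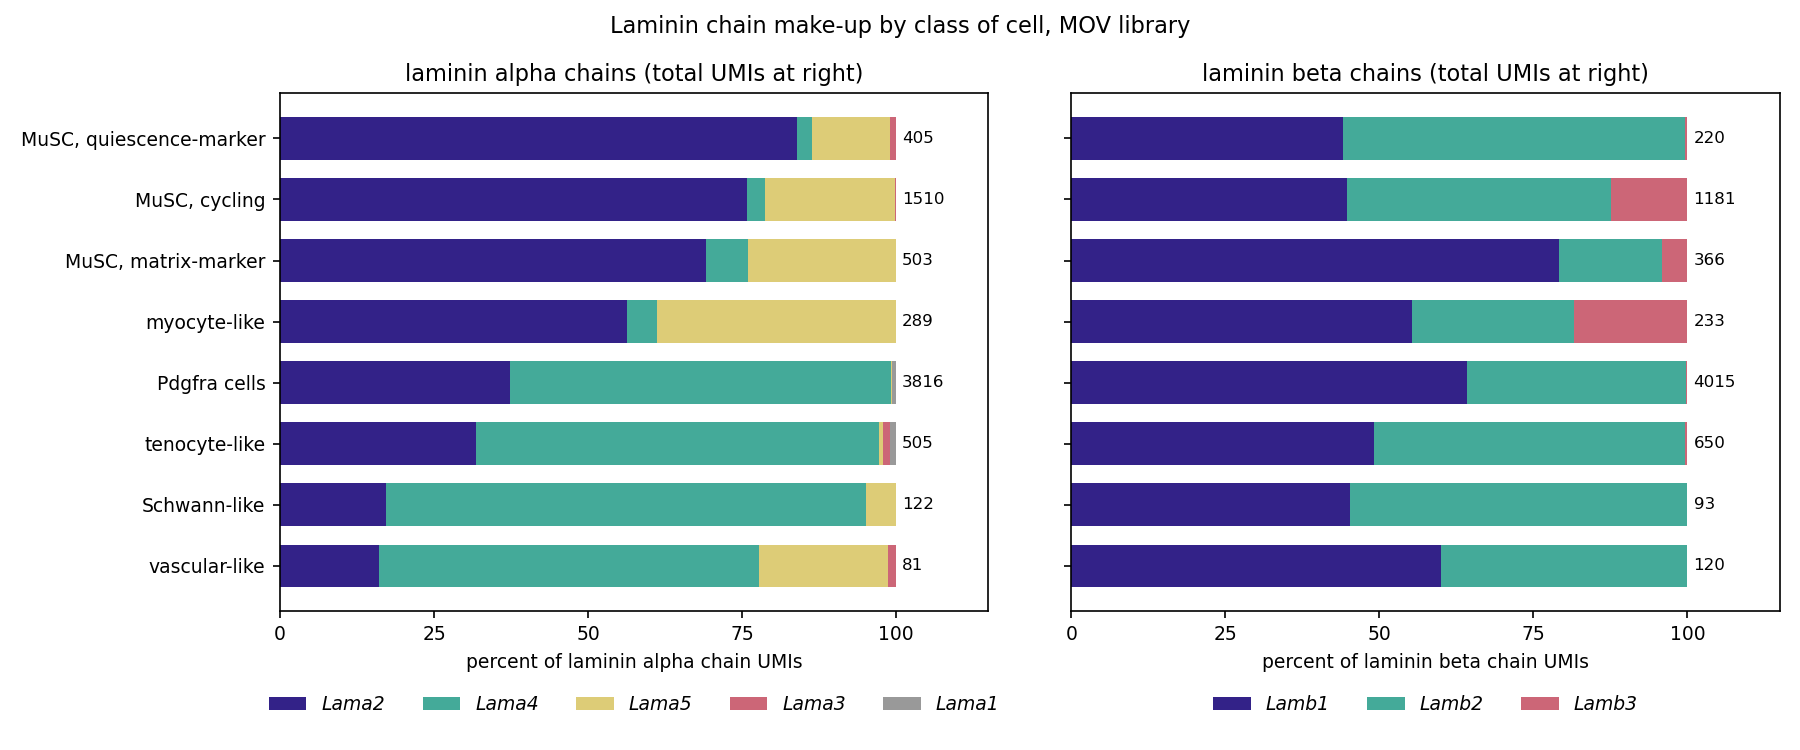
Percent of laminin α chain UMIs (left) and β chain UMIs (right) that each gene contributes in 8 classes of the MOV library, with the number of UMIs at the right of each bar. Lama2 takes 84.0% of α chain UMIs in quiescence-marker MuSC-like cells and 56.4% in myocyte-like cells, Lama4 takes 61.9% in Pdgfra cells, and Lamb1 takes 79.2% of β chain UMIs in matrix-marker cells.

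Lamb1 and Lamb2, the β chains, were both called higher in Pdgfra, Schwann-like and vascular-like cells than in all MuSC-like cells of the MOV library (Lamb1 in Schwann-like cells only under CPM, not with TMM or DESeq2 factors, and Lamb2 there not with equal weight per cell), and differed between MuSC states. In the MOV library Lamb1 measured 158 CPM in Pdgfra cells, 113 in vascular-like, 79.6 in tenocyte-like, 62.3 in Schwann-like and 27.6 in all MuSC-like cells, with overlapping intervals between neighbours from vascular-like to Schwann-like cells. Lamb2 measured 87.7 CPM in Pdgfra cells, 82.1 in tenocyte-like, 75.7 in Schwann-like and 75.5 in vascular-like cells, a range in which no neighbours differed beyond counting error, and 21.1 CPM in MuSC-like cells. The matrix-marker state combined the highest Lamb1 of the quiescence-marker, cycling and matrix-marker states, 65.6 CPM (58.2 to 73.6), with the lowest Lamb2, 13.8 CPM (10.5 to 17.7). Lamb1 thus made up 79.2% of its 366 β chain UMIs, against 44.1% of 220 in quiescence-marker cells, where Lamb2 made up 55.5%. Within the vascular-like class the 22 endothelial-like cells had mostly Lamb1 (82.1% of β chain UMIs, 163 CPM) and the 15 mural-like cells mostly Lamb2 (73.7%, 113 CPM). The endothelial-like share rests on 39 UMIs. Those cells also carried the mural marker Rgs5 at 652 CPM, beside Pecam1 at 1055 CPM, so the split is not clean. Tenocyte-like cells of the sham library had 46 UMIs of Lamb2 and 0 of Lamb1.

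Lamc1, the γ chain shared by most laminins, was abundant both in and outside the myogenic lineage. It stood at 201 CPM (194 to 208) in Pdgfra cells, 174 in both quiescence-marker MuSC-like (160 to 190) and Schwann-like cells (144 to 208), 117 in tenocyte-like, 96.0 in vascular-like, 83.6 in matrix-marker, 67.9 in cycling and 28.8 in myocyte-like cells of the MOV library. The Schwann-like interval overlapped that of Pdgfra cells and that of quiescence-marker cells, which did not overlap each other. Intervals also overlapped for tenocyte-like with vascular-like and vascular-like with matrix-marker cells.

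Nid1 was the most abundant transcript end of the list in Pdgfra cells, at 462 CPM (452 to 473) in MOV and 1185 CPM from 357 UMIs in sham. It measured 229 CPM in tenocyte-like, 189 in vascular-like, 92.0 in Schwann-like, 34.0 in MuSC-like and 11 CPM in myocyte-like cells of the MOV library. Tenocyte-like and vascular-like cells did not differ beyond counting error, and the myocyte-like level lay within the interval of the myeloid-like reference (10.4 CPM, 4.20 to 21.5). Of the sham Pdgfra UMIs, 25.5% came from 1 cell. Nid2 was lower throughout, at 39.8 CPM (36.8 to 43.0) in Pdgfra and 37.1 CPM (24.0 to 54.8) in Schwann-like cells, which did not differ beyond counting error. Its 10.1 CPM in MuSC-like cells lay within the interval of the myeloid-like cells (2.42 to 17.4). Nid1 made up 92.1% of nidogen UMIs in Pdgfra cells, 86.2% in quiescence-marker, 72.8% in cycling and 66.1% in myocyte-like cells. Outside Pdgfra cells these shares include counts that lay within the myeloid-like interval, so no order is read from them.

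Hspg2, encoding perlecan, was the most abundant transcript end of the list in MuSC-like cells and was also abundant in the other classes. In the MOV library it measured 278 CPM in Pdgfra cells, 217 in quiescence-marker, 193 in tenocyte-like, 171 in vascular-like, 139 in Schwann-like, 135 in matrix-marker, 91.9 in cycling and 62.9 CPM in myocyte-like cells, against 7.46 CPM (2.42 to 17.4) in myeloid-like cells. Intervals of neighbours overlapped from quiescence-marker to matrix-marker cells in this order. A UMI was seen in 91.1% of MuSC-like cells and in 7.94% of myeloid-like cells, or in 23.8% and 3.45% after thinning, where the median depths had been 22469 and 9738 UMIs. The 22 endothelial-like cells, which also carried the mural marker Rgs5, had 280 CPM (211 to 365) and the 15 mural-like cells 48.2 CPM (24.9 to 84.3).

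Agrn was a transcript of the Schwann-like cells. In the MOV library it stood at 120 CPM (95.4 to 149) there, from 81 UMIs, followed by vascular-like cells at 15.7, matrix-marker cells at 8.36, Pdgfra cells at 6.67 and all MuSC-like cells at 4.07 CPM. The Schwann-like interval lay above all others, and those of vascular-like, matrix-marker and Pdgfra cells overlapped. The Schwann-like level was 29.5-fold that of MuSC-like cells (log2 ratio 4.88, 4.49 to 5.27), a MuSC-like level read as background from the shares that follow. A UMI of Agrn was seen in 39 of 78 Schwann-like cells, in 11.4% of MuSC-like and in 1.59% of myeloid-like cells. At 2000 UMIs per cell these shares were 21.6%, 1.299% and 1.72%, so the MuSC-like share was not above the myeloid-like one and read as background. The 63 myeloid-like cells are too few to tell background from a low level of Agrn in MuSC-like cells. In the sham library the 10 Schwann-like cells had 2 Agrn UMIs, or 33.8 CPM (4.09 to 122). Among UMIs of Hspg2, Agrn and Col18a1 (collagen XVIII, which also carries heparan sulphate), Agrn took 19.3% (15.6 to 23.4) in Schwann-like cells, Col18a1 58.3% and Hspg2 22.4%. Hspg2 took 79.98% in quiescence-marker cells, 85.8% in Pdgfra cells and 59.0% over all MuSC-like cells of the MOV library. A large Col18a1 share was not particular to Schwann-like cells, with 57.8% in vascular-like, 50.7% in matrix-marker and 50.7% in myocyte-like cells. The Schwann-like class also carried the myeloid list at 1401 CPM, of which Lyz2 gave 1368, and its part in the Schwann-like values was not tested.

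Differences between classes were counted as calls where the ratio passed 2-fold and its interval lay off 0 on the log2 scale. Only genes with at least 20 UMIs in the compared classes together were tested. With equal weight per cell no interval was formed, and 2-fold alone made a call. In all, 9 comparisons were made, several of which share the MuSC-like or the quiescence-marker cells of the MOV library as their reference. Against MuSC-like cells of the MOV library, Pdgfra cells were called higher for 7 of the 10 genes, where 19.0% of all 13951 genes tested were, and lower for Lama5 alone, where 14.9% were. Genes called higher were Lama4, Nid1 (log2 ratio 3.76), Lamb1 (2.51), Lamb2 (2.05), Nid2 (1.98), Hspg2 (1.29) and Lamc1 (1.25, lost with equal weight per cell), and the median over all genes was -0.10. Schwann-like cells were called higher for 7 of 10 (18.8% of all genes) and lower for 0 (9.66%). These were Agrn, Lama4 (5.56), Nid2 (1.88), Lamb2 (1.84), Nid1 (1.44), Lamb1 (1.17) and Lamc1 (1.04), beside a median over all genes of 0.32. Scaling mattered here: edgeR's trimmed mean (TMM) factors lowered every ratio of that comparison by 0.44 and left 4 genes called higher, without Lamb1, Lamc1 and Nid1. The Lamc1 call was also lost with DESeq2 factors, with equal weight per cell and with cells with markers of 2 lineages kept. Over all genes, 66.1% of calls were in the higher direction under CPM and 42.3% under TMM. Vascular-like cells were called higher for 5 of 10 (15.2% of all genes), namely Lama4 (4.72), Nid1 (2.47), Lamb1 (2.03), Agrn (1.95) and Lamb2 (1.84), and lower for Lama2 (-1.44), where 12.3% of all genes were.

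Among the myogenic cells of the MOV library, 5 of the 10 genes were lower past 2-fold in cycling than in quiescence-marker cells. Cycling cells were called lower for 5 of 10 (10.4% of all 12300 genes) and higher for 0 (14.3%): Nid1 at 24.3 against 68.6 CPM (log2 ratio -1.499), Lama2 (-1.36), Lamc1 (-1.36), Hspg2 (-1.24) and Lamb2 (-1.06). Agrn (-0.91, -1.62 to -0.13), Lamb1 (-0.67, -0.98 to -0.34) and Lama5 (-0.46, -0.89 to -0.01) were lower with intervals off 0 but did not pass 2-fold. Lama4 (-0.98) and Nid2 (-0.27) had intervals across 0, and the median over all genes was 0.07. The MuSC-like levels of Agrn and Lama4 read as background. When each cell was given equal weight in place of each UMI, 1 of the 5 calls was left. The median was 12538.5 UMIs per quiescence-marker cell and 37302 per cycling cell. The Pdgfra list summed to 1450 CPM in quiescence-marker cells and 767 CPM over all MuSC-like cells of the MOV library. The latter value covers quiescence-marker and cycling cells together with the other states, so it is not that of cycling cells alone. The part of depth and of these markers in the result was not tested.
Matrix-marker cells were called higher than quiescence-marker cells for Lama4 (1.26, 0.21 to 2.44) and Lamb1 (1.07), where 6.83% of all genes were, and lower for Lamb2 (-1.51) and Lamc1 (-1.06), where 4.65% were. Lama4 had only 34 and 10 UMIs in this comparison, at 7.69 and 3.22 CPM, both within the interval of the myeloid-like cells. Without passing 2-fold, Lama5 was higher (0.74, 0.25 to 1.24). Hspg2 (-0.69, -0.85 to -0.53), Lama2 (-0.48, -0.70 to -0.26) and Nid1 (-0.48, -0.76 to -0.20) were lower without passing 2-fold, and Nid2 and Agrn had intervals across 0. The calls of Lamb1 and Lamc1 were lost with equal weight per cell, and that of Lamb1 with DESeq2 factors.
Myocyte-like cells were called lower than MuSC-like cells for 4 of 10 (11.4% of all 13372 genes) and higher for 0 (7.55%): Nid1 (-1.63), Lamc1 (-1.55), Lamb2 (-1.26) and Lama2 (-1.23). With equal weight per cell Lama4, Nid2, Hspg2 and Agrn were lower as well, making 8, and at a mitochondrial limit of 20% Lamb2 was -0.96 and not called. Lama4 and Agrn read as background in MuSC-like cells, and the MuSC-like Nid2 level lay within the interval of the myeloid-like cells. The myocyte-like Nid1 level lay within that interval too. Lama5 did not differ beyond counting error (0.16, -0.14 to 0.45), and the median over all genes was -0.14.

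**Figure D3:**
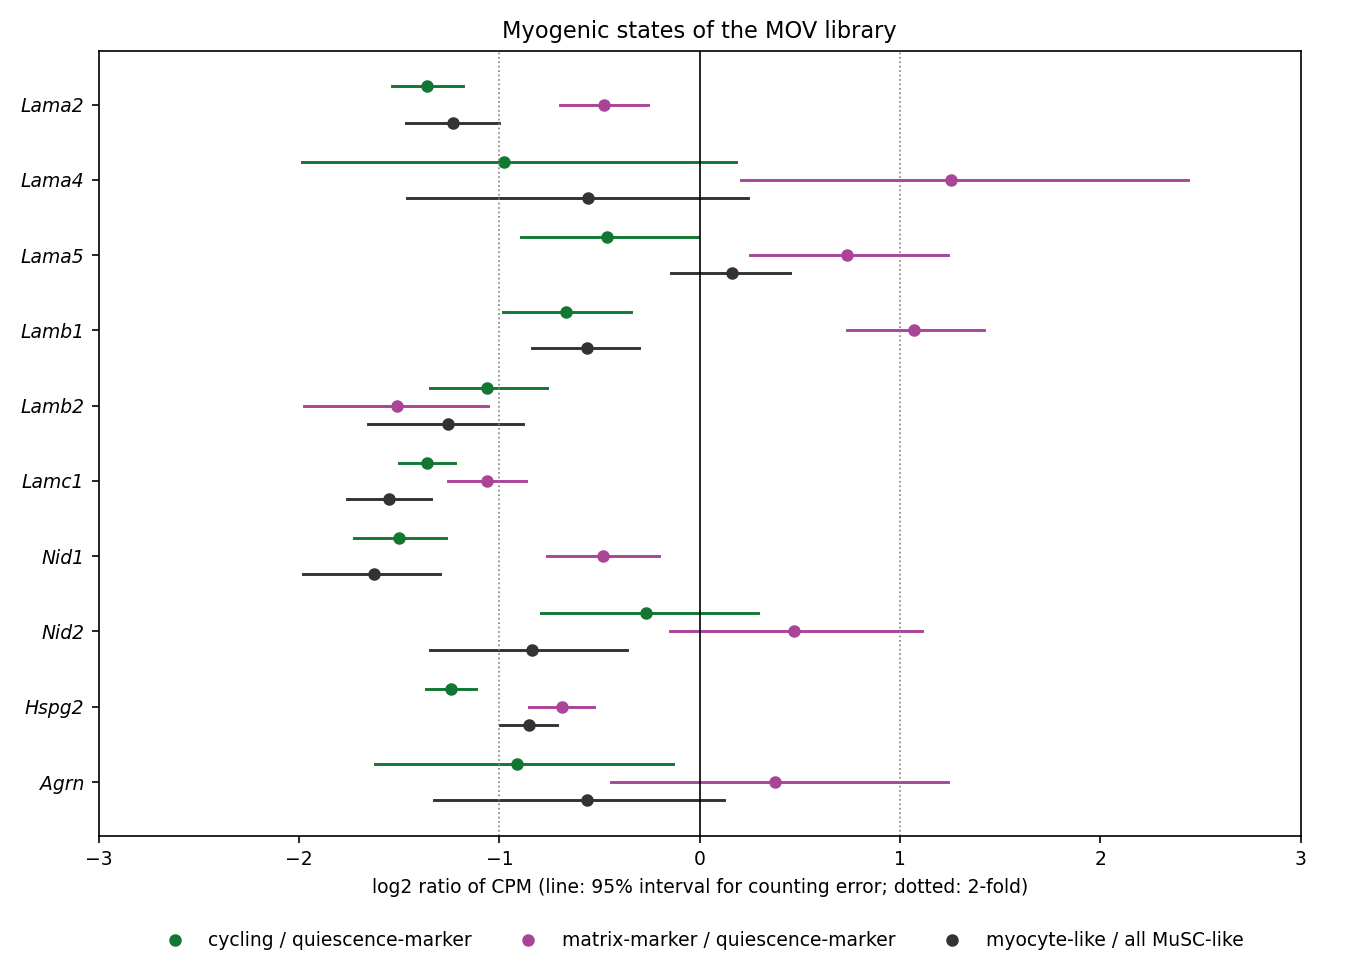
Log2 ratio of CPM for each gene between myogenic cells of the MOV library, with points for the ratio, lines for its 95% interval and dotted lines at 2-fold. Cycling cells lie past 2-fold to the left for Lama2, Lamb2, Lamc1, Nid1 and Hspg2. Matrix-marker cells lie past it to the right for Lamb1 and to the left for Lamb2, and Lama5 in myocyte-like cells sits at 0.16 with an interval across 0.

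The MOV and sham libraries were next compared within classes, the comparison the study was built for. Over all MuSC-like cells, 0 of the 10 genes were called higher (8.27% of all 13095 genes were) and 0 lower (7.09%). Hspg2 measured 126 CPM in sham and 113.7 in MOV, Lamc1 95.1 and 84.4, Lama2 69.7 and 55.4, Nid1 35.2 and 34.0, Lamb2 31.9 and 21.1, and Lamb1 30.0 and 27.6. The log2 ratios of these 6 lay between -0.59 and -0.05, beside a median of 0.14 over all genes. Lamb2 (-0.59, -1.01 to -0.15) and Lama2 (-0.33, -0.61 to -0.04) had intervals below 0, and Hspg2, Lamc1, Nid1 and Lamb1 had intervals across it. Lama4, Lama5, Nid2 and Agrn had fewer sham transcripts. Lama4 (1 sham UMI; 2.20, -0.31 to 7.51), Lama5 (13 UMIs; 0.78, -0.00 to 1.70) and Nid2 (11 UMIs; 0.50, -0.36 to 1.51) had ratios above 0 and Agrn (10 UMIs; -0.68, -1.59 to 0.40) below 0, each with an interval across 0. With equal weight per cell, Lama4, Lama5, Lamb1 and Nid2 passed 2-fold on the higher side, in a setting without intervals. The mix of states behind these sums differed: cycling cells gave 22.3% of the MuSC-like UMIs in sham and 57.3% in MOV, and quiescence-marker cells gave 41.2% and 6.62%. Without the shared barcodes, which lowered the sham cycling cells from 7 to 3, Lama5 and Lamb1 were called higher, Lamb1 at 1.24 (0.43 to 2.19).

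Within the quiescence-marker state, 2 of the 10 genes were called higher in MOV, where 12.2% of all genes were. Hspg2 measured 120 CPM (94.6 to 150) in sham and 217 (201 to 234) in MOV, a log2 ratio of 0.86 (0.51 to 1.22). Lamc1 measured 99.5 and 174 CPM (0.81, 0.43 to 1.21), Nid1 34.7 and 68.6 CPM (0.98, 0.34 to 1.69), and Lama2 80.5 and 109 CPM (0.44, 0.01 to 0.90). None of these 4 passed 2-fold. Lamb1 at 12.6 and 31.2 CPM (1.31, 0.27 to 2.56) and Lama5 at 4.74 and 16.4 CPM (1.79, 0.16 to 4.12) did, and these were the 2 genes called, among 8398 tested. None of the list was called lower, where 5.26% of all genes were. The calls rest on few sham transcripts, 8 UMIs of Lamb1 and 3 of Lama5. With a mitochondrial limit of 5%, which left 22 sham cells of this state, neither was called and the Lamb1 ratio was -0.02. Nid2 (1.79, -0.17 to 4.90, from 2 sham UMIs), Lamb2 (-0.27) and Agrn (0.03) had intervals across 0. With equal weight per cell, where no interval was formed, Nid2 and Hspg2 passed 2-fold on the higher side too.
Depth, mitochondrial share and markers of other classes moved with this comparison. The median was 7645 UMIs per sham cell and 12538.5 per MOV cell, and the median mitochondrial share 5.66% and 3.08%. The 8 markers of the Pdgfra list summed to 328 CPM in sham (5 markers with a UMI) and 1450 CPM in MOV (8 with a UMI), of which Col3a1 gave 268 and 1153 CPM, while Pdgfra itself stood at 0 and 1.61 CPM. The fibre list summed to 469 and 113 CPM. Lama4, at 145 CPM in Pdgfra cells of the MOV library, had 1 UMI in these sham cells (1.58 CPM) and 10 in MOV (3.22 CPM). Its log2 ratio of 1.03 had an interval from -1.79 to 6.47, so no change or constancy is read from it. The part of these differences in the result was not tested.

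In Pdgfra cells the calls lay on the lower side. The 429 MOV cells were called lower than the 20 sham cells for 7 of the 10 genes, where 9.40% of all 11889 genes were, and higher for 0, where 6.95% were. Lama2 measured 358 CPM (294 to 433) in sham and 87.0 in MOV, 4.12-fold lower (log2 ratio -2.04, -2.32 to -1.75). Lamb2 was 3.60-fold lower (315 and 87.7 CPM), Nid2 3.25-fold (129 and 39.8), Lamc1 2.75-fold (554 and 201), Nid1 2.56-fold (1185 and 462), Hspg2 2.40-fold (667 and 278) and Lama4 2.16-fold (312 and 145). Lamb1 was lower without passing 2-fold (275 and 158 CPM, -0.80), and Agrn did not differ beyond counting error (0.01). The median over all genes was -0.10. TMM factors raised every ratio by 0.20 and took Lama4 below 2-fold, and under them 58.4% of all calls were in the higher direction, against 42.5% under CPM. The sham class held 20 cells, of which 1 gave 24.6% of the Lamc1 UMIs. Depth, mitochondrial share and other marker lists moved with this comparison. The median was 12970 UMIs per sham cell and 37472 per MOV cell, and the median mitochondrial share 3.26% and 2.00%. The tenocyte list summed to 763 CPM in sham and 2810 in MOV, the immediate-early list to 9397 and 3899, the cycling list to 73.0 and 1366, and the fibre list to 275 and 23.8 CPM. Their part in the result was not tested.

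**Figure D4:**
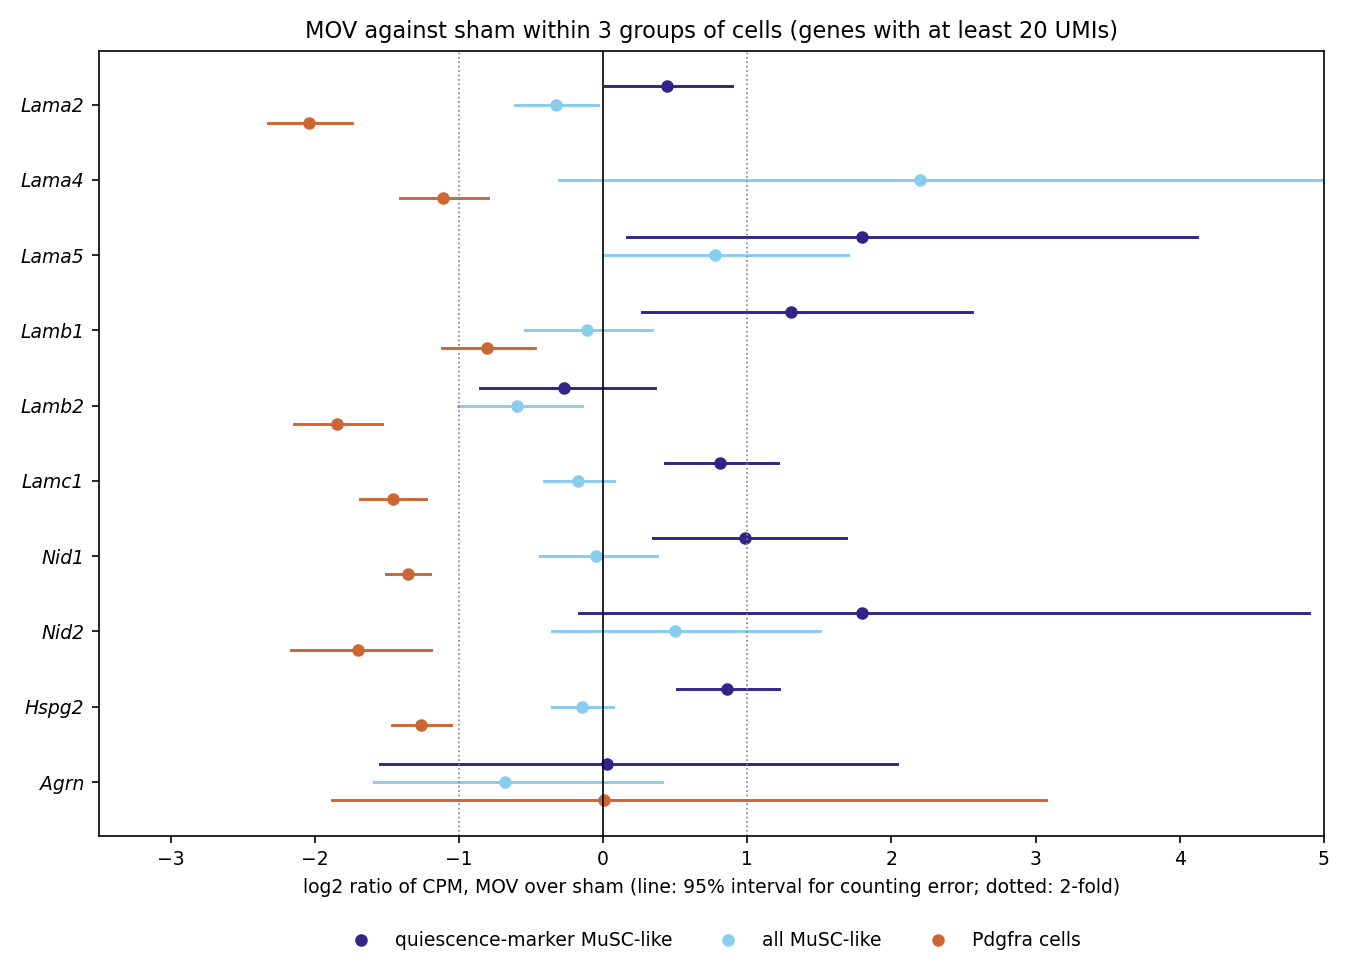
Log2 ratio of CPM in MOV over sham for each gene with at least 20 UMIs, in quiescence-marker MuSC-like cells, all MuSC-like cells and Pdgfra cells, with 95% intervals and dotted lines at 2-fold. Pdgfra cells lie left of 0 for 8 genes and intervals of quiescence-marker cells lie right of 0 for Lama2, Lama5, Lamb1, Lamc1, Nid1 and Hspg2 and across it for Nid2, Lamb2 and Agrn; Lama4 in quiescence-marker cells and Lama5 in Pdgfra cells had under 20 UMIs and are not drawn, and the Lama4 interval of all MuSC-like cells runs past the axis to 7.51.

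Other basement membrane genes were read from a list of 68 laminin chains, collagens, glycoproteins, receptors, glycan enzymes and proteases. In quiescence-marker cells, 14 of 42 tested were called higher in MOV and 5 lower, where 12.2% and 5.26% of all genes were, with a median log2 ratio of 0.40 beside 0.22 over all genes. The collagen IV genes Col4a1 (295 and 869 CPM, log2 ratio 1.56) and Col4a2 (1.73), Col18a1 (1.60) and Sparc (2.16), whose product binds collagen IV, were among the former, with the laminin receptor gene Itga7 (1.23). Musk (-1.02), the agrin receptor kinase gene, was among the latter. In Pdgfra cells 3 of 54 were called higher in MOV and 14 lower (median -0.54), where 6.95% and 9.40% of all genes were, with Sparc (1.54) on the higher side and Col15a1 (-1.29), Mmp2 (-1.25) and Hmcn2 (-4.34) on the lower.

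Cycling cells were called lower than quiescence-marker cells for 20 of 58 and higher for 6 (median -0.39), where 10.4% and 14.3% of all genes were. Col4a1 (869 against 151 CPM, -2.53), Col4a2 (-2.43), the dystroglycan gene Dag1 (-1.48) and the syndecan gene Sdc4 (-1.47) were lower, on the same side as Lama2, Lamc1, Nid1 and Hspg2. Lamb3 had 1 UMI in the quiescence-marker state and 147 in cycling cells (4.09, 1.59 to 9.40). In myocyte-like cells 6 of 61 were higher and 16 lower than in MuSC-like cells (median -0.46), where 7.55% and 11.4% of all genes were, so the share called higher was near that of all genes. The integrin genes Itga6 (2.74) and Itgb4 (1.89), the nephronectin gene Npnt (2.81), the α5 laminin receptor gene Bcam (1.12), the agrin receptor gene Lrp4 (1.03) and Lamc3 (2.32) made up the 6, and 5 of 7 proteases were lower. Lamc3 had only 11 UMIs in myocyte-like and 15 in MuSC-like cells.

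Receptor and protease genes also differed between classes. Against MuSC-like cells, Pdgfra cells were called lower for 9 of 16 receptors, with Itga7 at -4.41, Dag1 at -2.92 and Bcam at -5.79, and higher for 7 of 7 proteases. Over the 62 genes tested 26 were higher and 11 lower (median 0.28), where 19.0% and 14.9% of all genes were. Schwann-like cells were higher for 25 of 60 (median 0.92), with Itga6 (5.65) and Itgb4 (5.32), and lower for 8, with Itga7 (-2.24), where 18.8% and 9.66% of all genes were. Vascular-like cells were higher for 15 of 60 (median 0.14), with Col4a1 at 1741 CPM (2.80) and Itga6 (6.497), and lower for 9, with Dag1 (-2.83), where 15.2% and 12.3% of all genes were, so the share called lower was near that of all genes.

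The pattern of each gene was set beside 9873 genes over 20 profiles, each a class or state with at least 20 cells in a library, by Pearson's r of log2(CPM + 10). The profiles share libraries, depth and, for states within a class, cells, so r is a description. The closest gene was Ptgfrn for Lama2 (0.93), Fbln5 for Lama4 (0.93), Myo10 for Lama5 (0.88), Fer for Lamb1 (0.88), C1ra for Lamb2 (0.92), Adamts5 for Lamc1 (0.89), Fstl1 for Nid1 (0.93), Mme for Nid2 (0.91), Osmr for Hspg2 (0.91) and Mmp17 for Agrn (0.96). Within the list the closest pairs were Lamb2 with Nid1 (0.90), Lamc1 with Hspg2 (0.89) and Lama4 with Nid1 (0.88), while Lama5 with Lamb2 had -0.33.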

How the data were processed

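The authors deposited, for each library, a matrix of UMI counts per gene and cell (10x 3′ chemistry, mm10); the submitters' processing notes name Cell Ranger 6.0.0, R 4.0.2 and Seurat 4.0.2. The counts were used as deposited, with no scaling by the authors. Cells with 10% or more mitochondrial UMIs or under 1000 UMIs were left out, as were the top Scrublet doublet scores (scanpy 1.11.5; 0.8% per 1000 cells). Of 44 barcodes found in both libraries, 39 were deeper in sham and 5 in MOV, and the shallower copy was left out. The depth kept was a median of 5837 UMIs per cell in sham and 23428 in MOV.

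Groups came from marker UMIs per 10000 and the number of different markers, with limits set after the marker UMIs had been seen; cells with markers of 2 lineages were left out of the classes, except that cells with both endothelial and mural markers (5 in sham, 11 in MOV) stayed in the vascular-like class. UMIs were summed per class, and log2 ratios of CPM have exact conditional 95% intervals, levels exact Poisson intervals and shares Clopper-Pearson intervals. No fold is given against 0 UMIs, and ratios against 1 to 3 UMIs are given with their counting interval. The ratio and call procedure was run on simulated Poisson counts. These hold no spread between cells or libraries, so the run does not show how calls behave under such spread. All 10 genes are named, and other genes only from the list of 68 or as the 3 most alike in pattern; the closest is printed. The members and lists were chosen with earlier results of these data known. Alternatives were other mitochondrial, UMI, doublet, marker and gene limits, equal weight per cell, and edgeR 4.0.16 (TMM) or DESeq2 1.42.0 size factors as scalings only. Scripts used Python 3.11.15, numpy 2.4.6, scipy 1.17.1, pandas 2.3.3, matplotlib 3.10.9 and R 4.3.3. Start site windows came from RefSeq (GRCm38.p6), which held 7 of the 10 genes, without Lama4, Lamc1 and Nid2; windows over annotated exons were not printed. Results that rest on items withheld from this text are not reported here.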

Additional observations from a re-analysis of the deposited data

Results flagged for a closer look

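For 5 genes the MOV against sham ratio had opposite signs in quiescence-marker MuSC-like cells and in Pdgfra cells, with both intervals off 0. On the log2 scale Lama2 was 0.44 in the former and -2.04 in the latter, Lamb1 1.31 and -0.80, Lamc1 0.81 and -1.46, Nid1 0.98 and -1.36, and Hspg2 0.86 and -1.26. At a mitochondrial limit of 5% the quiescence-marker ratio of Lamb1 was -0.025 and that of Lama2 0.01 (-0.58 to 0.66), and the interval of Lama2 also crossed 0 with TMM (0.35, -0.08 to 0.80) and DESeq2 factors (0.33, -0.10 to 0.79) and with doubled marker limits. With 1 library per condition the difference between the classes was not tested. The sham side rests on 79 quiescence-marker cells and 20 Pdgfra cells.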

How the results depend on the processing

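No paired analysis was possible because each condition had 1 library. Of 43 calls on the 10 genes, 10 were lost and 11 gained when cells had equal weight, 4 lost and 2 gained with edgeR TMM, 4 lost and 1 gained with DESeq2 size factors, and at most 2 lost and 3 gained under any of the other 12 settings. For MOV against sham in MuSC-like cells, 0 genes were higher; 2 were with both copies of shared barcodes left out, 4 with equal weight per cell (Lama4, Lama5, Lamb1 and Nid2) and 1 without the cell holding the most UMIs of the list (Lama5). In quiescence-marker cells 2 were higher; 0 were at a mitochondrial limit of 5%, where Lamb1 turned to -0.025, 1 at 20% and 4 with equal weight. Equal weight left 1 of 5 lower genes in cycling cells, 1 of 2 higher and 1 of 2 lower in matrix-marker cells (without Lamb1 and Lamc1), and made 8 lower in place of 4 in myocyte-like cells and 1 lower in place of 0 in Schwann-like cells, where Lamb2 and Lamc1 were no longer higher. DESeq2 factors left 1 higher in matrix-marker cells, without Lamb1, and made 1 lower in Schwann-like cells, where Lamb1 and Lamc1 were no longer higher. TMM left 4 higher of 7, without Lamb1, Lamc1 and Nid1, and made 2 lower in Schwann-like cells. Lama4 in Pdgfra cells, MOV against sham, lost its call with TMM, DESeq2 factors, equal weight and shared barcodes left out. The causes were not tested. With equal weight per cell a call needed 2-fold only and no interval, so its counts come from a looser rule than the others. Among all genes, counts that moved by over 1.5 times with equal weight, or with the setting named, were MuSC-like higher in MOV from 1083 to 4137 (2055 without shared barcodes), quiescence-marker higher from 1026 to 1755 (513 at 5% mitochondrial), Pdgfra higher from 826 to 3540 and lower from 1118 to 2042, myocyte-like lower from 1519 to 2547, vascular-like lower from 1623 to 4261, Schwann-like lower from 1277 to 3198 (2249 with TMM, 2177 with DESeq2 factors), and Schwann-like higher from 2490 to 1649 with TMM. MuSC-like lower in MOV went from 929 to 607 at 5% mitochondrial. The share of higher among calls went with DESeq2 factors from 66.1% to 43.8% in Schwann-like cells, from 42.5% to 57.3% in Pdgfra cells and from 69.9% to 59.2% in quiescence-marker cells, as ratios shifted by -0.41, 0.19 and -0.11; TMM shifted vascular-like ratios by -0.14. The settings on shared barcodes, on stricter marker limits and on the cell with the most UMIs were chosen after seeing the data. Sham classes of 10 to 22 cells gave intervals of severalfold for genes under 10 UMIs.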

Other observations

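Cells that passed no marker list carried Lamb2 at 477 CPM in sham and 261 CPM in MOV, and were chosen for description after their values were seen. Their leading genes, over 23 sham and 61 MOV cells, were Sfrp5 (4052 CPM in sham, 1974 in MOV), Igfbp6, Itgb4 (843 and 349 CPM), Lypd2 and Cldn1, and no cell type is given to them here. In the 11 sham and 21 MOV cells with at least 2 Sfrp5 UMIs, Lamb2 stood at 615 CPM (482 to 775) and 594 CPM (505 to 693), so the libraries did not differ beyond counting error. Nid1 stood at 496 and 364 CPM, Lama4 at 205 and 234, Lamc1 at 205 and 141, and Nid2 at 145 and 70.5 CPM. Lama5 stood at 8.55 CPM from 1 UMI and 22.3 CPM from 6. Lamb1 was low in the same cells, at 8.55 and 11.1 CPM, against 158 CPM in Pdgfra cells of the MOV library, and Agrn stood at 0 and 11.1 CPM.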
